A study of Mus musculus with 6 samples.

Results

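The 30 genes described here encode the enzymes of cholesterol synthesis, the proteins that sense and carry sterols, and the enzymes of fatty acid synthesis. They were picked by symbol from a deposited table of 24346 gene symbols, and all 30 were found and passed a filter of a mean of at least 1 FPKM (fragments per kilobase of transcript, scaled to the library's mapped fragments), which 11603 genes passed. Expression was read by RNA-seq of total RNA in primary articular chondrocytes, the cartilage cells of the joint surface, from ICR mice at postnatal day 4. The groups were 3 libraries of cells stimulated with semaphorin 4D (Sema4D), a ligand of plexin-B receptors, and 3 control libraries of cells without it. The sources used here do not give the dose, the duration or the medium, including any serum or lipid in it. Whether the replicates of a group were separate cultures or animals is not given either, and a p-value here weighs a difference against the scatter of these 6 libraries, which could be technical scatter.

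Cholesterol is built from acetyl-CoA through mevalonate, isoprenoid units, squalene and a series of sterol intermediates, while fatty acids are built from the same acetyl-CoA through malonyl-CoA. The transcription factors SREBP1 and SREBP2, encoded by Srebf1 and Srebf2, activate the genes of both routes. Their precursors leave the endoplasmic reticulum with the escort protein Scap when sterols are scarce, and Insig proteins hold that complex back when sterols are plentiful. Chondrocytes are known to make cholesterol, and growth plate cartilage depends on it.

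FPKM columns summed to 518901 to 527492 in the Sema4D libraries and to 492708 to 494123 in the control libraries, and the groups separated on the first principal component, which held 75.4% of the variance. All 13 chondrocyte markers were tested, and Col2a1 stood at 8396 to 9131 FPKM in Sema4D and at 10011 to 10952 FPKM in control libraries. Markers of fibroblasts and synovium were abundant too, and all 7 were tested: Col1a1 averaged 3820 ± 89.5 FPKM in Sema4D and 4011 ± 159 FPKM in control libraries (SD, n = 3 each), and the list summed to 7753 to 8100 FPKM in Sema4D and 8395 to 8987 FPKM in control libraries. Of these, 2 rose (Pdgfra, 42.3 FPKM in Sema4D and 22.8 FPKM in control libraries, log2 fold change 0.86, and Postn, 37.9 FPKM in Sema4D and 30.9 FPKM in control libraries, 0.29) and 3 fell (Col1a2, Thy1 and Dpt, the last at 11.5 FPKM in Sema4D and 23.2 FPKM in control libraries, -0.95). Of 9 macrophage and osteoclast markers 6 were tested and the list summed to 94.7 to 99.8 FPKM in Sema4D and 82.8 to 90.8 FPKM in control libraries. Ptprc, a general leukocyte marker, was under the filter, at 0.127 FPKM or below in every library. So were Adgre1, at 0.563 to 0.750 FPKM in Sema4D and 0.0784 to 0.268 FPKM in control libraries, and Csf1r, at 0.536 to 1.16 FPKM in Sema4D and 0.503 to 0.726 FPKM in control libraries. Ctsk (67.5 FPKM in Sema4D and 52.99 FPKM in control libraries) and Cd14 rose, while Lyz2 (15.9 FPKM in Sema4D and 22.4 FPKM in control libraries) and Tyrobp fell. For Cd68 (3.01 FPKM in Sema4D and 2.65 FPKM in control libraries) and Acp5 (5.08 FPKM in Sema4D and 5.55 FPKM in control libraries) the groups overlapped. The 5 endothelial markers were each at 0.148 FPKM or below in every library. Of the 8 adipocyte markers, which bear on lipogenic genes, only the fatty acid carrier gene Fabp4 passed the filter, at 24.3, 29.3 and 25.7 FPKM in Sema4D and 11.4, 8.56 and 11.3 FPKM in control libraries (1.27, limma adjusted p = 2.47e-05). It made up most of the list's sum of 25.3 to 30.1 FPKM in Sema4D and 9.77 to 13.9 FPKM in control libraries; Adipoq was at 0.193 to 0.490 FPKM in Sema4D and 0.729 to 0.943 FPKM in control libraries. The chondrocyte markers moved with the genes below: 12 of 13 fell (median log2 fold change -0.38), against 22.2% of all tested genes. Their summed level was 12568 to 13660 FPKM in Sema4D and 15674 to 16978 FPKM in control libraries. Col2a1, which makes up most of that sum, fell less (-0.26) than Hapln1 (-0.91), Sox9 (-0.87) and Acan (-0.73). Prg4 did not pass (0.08). The part of these markers in the results was not tested. In bulk RNA, fewer cells of a type and less RNA per cell cannot be told apart.

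With Sema4D, 19 of the 30 genes fell, 5 rose and 6 did not pass the threshold, an adjusted p under 0.05 in limma's test on log2(FPKM + 1), adjusted over all 11603 genes. Over all tested genes 22.2% fell and 24.5% rose, 46.7% in all. The FPKM sums of the groups differ, so the split of calls depends on scaling: of all calls 52.4% were rises as deposited, 34.5% with FPKM rescaled to an equal sum in each library and 38.8% with quantile normalization. Of the 30 genes, 23 fell and 1 rose with rescaled FPKM, where 32.8% of all tested genes fell and 17.3% rose (50.0% in all), and 22 fell and 1 rose with quantile normalization, where 29.4% fell and 18.7% rose (48.1% in all). The groups did not overlap for 26 of the 30 genes, against 56.6% of all tested genes: 21 lay wholly lower with Sema4D, against 27.0%, and 5 wholly higher, against 29.6%. The median log2 fold change of the 30 was -0.18, beside 0.01 for all tested genes, and the changes were small, with a largest fall of 33.8% of mean FPKM (Scd1) and a largest rise of 64.1% (Insig2). Summed over the 30 genes, expression was 1579 ± 25.6 FPKM in Sema4D and 1791 ± 44.5 FPKM in control libraries (SD, n = 3 each), 11.9% lower as deposited.

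**Figure D1:**
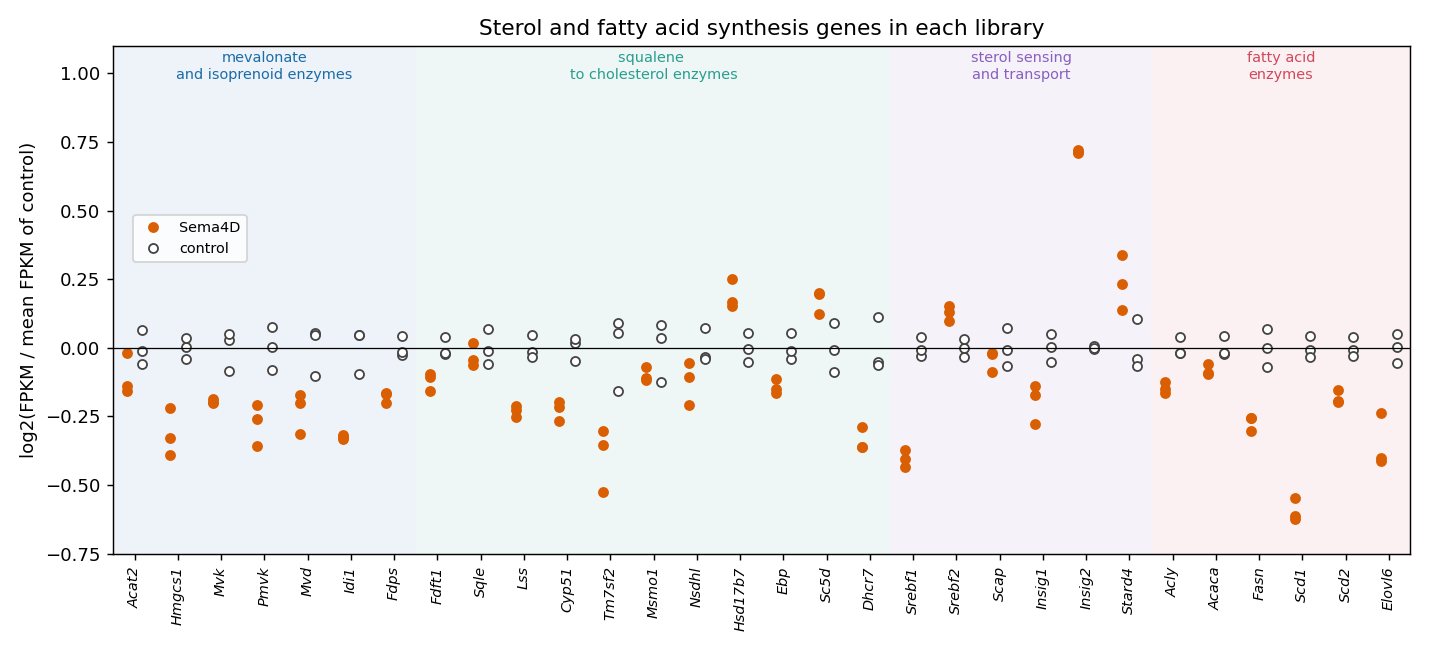
Each point is 1 library, given as the log2 of its FPKM over the mean FPKM of the 3 control libraries (vertical axis), with Sema4D libraries filled and control libraries open, for the 30 genes in pathway order (horizontal axis). All Sema4D points lie below all control points in 21 genes and above them in 5, of which Insig2 stands highest.

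Mevalonate and isoprenoid enzymes came first along the pathway, and 6 of 7 fell (median log2 fold change -0.22), against 22.2% of all tested genes. Acat2, the cytosolic thiolase that joins acetyl units, had 33.9, 36.8 and 33.5 FPKM in Sema4D libraries and 39.1, 35.9 and 37.1 FPKM in control libraries. The groups overlapped, and it missed the threshold (-0.10, SE 0.048, limma adjusted p = 0.117), passing it without Sema4D replicate 2 (adjusted p = 0.0401), with FPKM rescaled to an equal sum (0.0158) and with quantile normalization (0.022).

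Hmgcs1, the synthase that makes HMG-CoA from acetyl units (chromosome 13, 119690351 to 119708260 in GRCm38), had 82.6, 89.1 and 79.1 FPKM in Sema4D libraries and 104, 101 and 106 FPKM in control libraries. Every Sema4D library was below every control library (log2 fold change -0.31, SE 0.045, limma adjusted p = 0.000691). Idi1, which isomerises the isoprenoid unit (chromosome 13, 8885606 to 8892396), had 43.9, 43.7 and 43.4 FPKM in Sema4D libraries and 56.5, 51.2 and 56.4 FPKM in control libraries. This was the largest fall of the 7 (-0.32, SE 0.042, adjusted p = 0.000379), and the Sema4D libraries lay closer together than the control libraries (SD 0.219 FPKM in Sema4D and 3.05 FPKM in control libraries, n = 3 each). At an estimated 1970 to 2380 fragments in the Sema4D libraries, an SD of 0.219 FPKM lies below the scatter of counting fragments. Fdps, the farnesyl diphosphate synthase and the most abundant of the sterol enzymes by FPKM, had 184, 189 and 189 FPKM in Sema4D libraries and 208, 209 and 218 FPKM in control libraries (-0.18, SE 0.028, adjusted p = 0.00114). Of its 75-base stretches 80.4% also occur in other genes, Gm43738 and Gm3571 among them, so its level is uncertain. Stretches shared with other genes were also common in Acat2 (40.7%, with Acat3 and Tcp1) and Idi1 (29.1%), and less so in Hmgcs1 (12.2%). The kinases and decarboxylase between these steps fell too: mean FPKM was 33.4 in Sema4D and 38.3 in control libraries for Mvk, 31.0 in Sema4D and 37.5 in control libraries for Pmvk, and 36.7 in Sema4D and 43.0 in control libraries for Mvd. Their log2 fold changes were -0.19, -0.27 and -0.22, and their groups did not overlap.

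The promoter of Hmgcs1 is shown because it alone among the members' windows held the exact letters TCACNCCAC, which resemble the sterol response element that SREBPs bind. Near matches were not counted and genes without a window were not searched, so other members may hold such an element. Windows were the 250 bases before each start in RefSeq (GRCm38.p6), found for 24 of the 30 genes in 32 windows, and each is printed in the direction of transcription. Capitals mark the letters TCACNCCAC (sterol response element-like), CACGTG (E-box) and CCAAT (bound by NF-Y, a partner of SREBPs), on either strand. The promoters of Insig1 and Insig2 are set beside it because these paralogs moved in opposite directions.
Hmgcs1 promoter, chr13:119690101-119690350, plus strand: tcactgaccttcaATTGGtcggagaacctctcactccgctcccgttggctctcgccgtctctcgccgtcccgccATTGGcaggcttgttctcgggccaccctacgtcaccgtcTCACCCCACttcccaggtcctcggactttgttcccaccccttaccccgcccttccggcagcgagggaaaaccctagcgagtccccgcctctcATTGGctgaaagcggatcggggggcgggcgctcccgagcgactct
Insig1 promoter, chr5:28071162-28071411, plus strand: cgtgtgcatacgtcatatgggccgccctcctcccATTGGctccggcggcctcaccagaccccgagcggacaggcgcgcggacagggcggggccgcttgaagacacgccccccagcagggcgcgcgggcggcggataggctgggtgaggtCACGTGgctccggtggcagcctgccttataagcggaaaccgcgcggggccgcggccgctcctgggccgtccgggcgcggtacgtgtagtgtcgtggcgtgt
Insig2 promoter, chr1:121332590-121332839, minus strand: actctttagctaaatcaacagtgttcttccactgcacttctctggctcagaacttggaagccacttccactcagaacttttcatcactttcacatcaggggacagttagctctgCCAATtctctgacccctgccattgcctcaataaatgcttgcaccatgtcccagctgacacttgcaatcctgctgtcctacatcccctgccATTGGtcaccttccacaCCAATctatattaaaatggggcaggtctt
The Hmgcs1 element starts 137 bases before the start, and 3 CCAAT boxes lie in the same window. Insig1 has an E-box 101 bases before the start and 1 CCAAT box. The Insig2 window shown, before 1 of its 3 listed starts, has 3 CCAAT boxes and neither of the other motifs in capitals, and lies partly within the gene's RefSeq extent. The windows before the other Insig2 starts have 0 CCAAT boxes, none of the other motifs in capitals and 1 GC box each. Gene-level FPKM do not tell which Insig2 start these cells used. Over all members, TCACNCCAC was in 1 of 32 windows against 1.05% of all 32851 windows, CACGTG in 5 of 32 against 6.02%, and CCAAT in 20 of 32 against 33.8%. GGGCGG, the GC box, was in 23 of 32 against 32.7%. Each motif was counted by itself on both strands, so matches of different motifs may overlap. A match is a description of the letters and not of binding.

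From squalene to cholesterol, 6 of 11 enzymes fell, 2 rose and 3 did not pass (median -0.12). Of all tested genes 22.2% fell and 24.5% rose. The enzymes that fell were spread along the route. Lss, which closes squalene epoxide into the sterol ring, had 18.95, 19.1 and 18.6 FPKM in Sema4D libraries and 22.0, 21.7 and 22.9 FPKM in control libraries (-0.22, SE 0.036, limma adjusted p = 0.00132). Cyp51, which removes the methyl group at carbon 14, had 42.4, 44.6 and 44.0 FPKM in Sema4D libraries and 51.6, 49.4 and 52.2 FPKM in control libraries (-0.22, adjusted p = 0.000969). In both genes the groups were well apart. Tm7sf2, a sterol reductase that acts after Cyp51, was at the lowest level of the 30 genes beside Hsd17b7 and had 8.76, 9.87 and 10.2 FPKM in Sema4D libraries and 11.3, 13.1 and 13.4 FPKM in control libraries (-0.36, SE 0.075, adjusted p = 0.00478). Its exons share 12.1% of their bases with Vps51 on the same strand. Dhcr7, which makes cholesterol in the last step of one branch, had 18.5, 19.4 and 18.5 FPKM in Sema4D libraries and 22.9, 22.7 and 25.7 FPKM in control libraries (-0.32, SE 0.052, adjusted p = 0.00121). By the size of the change Tm7sf2 and Dhcr7 led these 11 genes.

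Smaller falls were those of Fdft1, the squalene synthase (28.9 ± 0.662 FPKM in Sema4D and 31.5 ± 0.768 FPKM in control libraries, SD, n = 3 each, limma adjusted p = 0.024), and Ebp, a sterol isomerase (14.9 ± 0.273 FPKM in Sema4D and 16.5 ± 0.554 FPKM in control libraries, adjusted p = 0.0241). Neither call was firm. Fdft1 missed the threshold without Sema4D replicate 3 (0.0731) or control replicate 3 (0.082). Ebp missed it without Sema4D replicate 1 (0.0686) or 3 (0.0689) and without control replicate 1 (0.0653) or 3 (0.0537). Exons of Fdft1 share 18.3% of their bases with the opposite strand of Ctsb, and the sources used here name no strand setting.

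Sqle, the epoxidase that oxidises squalene, had 62.2, 65.8 and 63.0 FPKM in Sema4D libraries and 64.5, 62.4 and 68.1 FPKM in control libraries. The groups overlapped, with a log2 fold change of -0.03 (95% interval -0.12 to 0.06, limma adjusted p = 0.586). Msmo1, the methyl sterol oxidase, overlapped as well (70.9, 73.3 and 71.3 FPKM in Sema4D and 81.5, 70.5 and 78.8 FPKM in control libraries, -0.10, adjusted p = 0.163), with control replicate 2 below the other control libraries and an adjusted p of 0.00922 without it and 0.0224 with rescaled FPKM, but 0.0911 with quantile normalization. Nsdhl, the sterol dehydrogenase of the same step, was at 31.6 ± 1.72 FPKM in Sema4D and 34.4 ± 1.54 FPKM in control libraries (-0.12, adjusted p = 0.0777; 0.0474 without Sema4D replicate 3, 0.0129 with rescaled FPKM and 0.0124 with quantile normalization).

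The 2 enzymes that rose were Hsd17b7, the ketone reductase of the same demethylation, and Sc5d, the desaturase that acts just before Dhcr7. Hsd17b7 had 10.9, 11.7 and 11.01 FPKM in Sema4D libraries and 10.2, 9.47 and 9.78 FPKM in control libraries (0.17, SE 0.046, limma adjusted p = 0.0154). Sc5d had 28.7, 28.8 and 27.3 FPKM in Sema4D libraries and 24.9, 23.6 and 26.7 FPKM in control libraries (0.17, SE 0.049, adjusted p = 0.022), so that it and Dhcr7, consecutive in the route, moved in opposite directions. Neither rise held once the unequal FPKM sums were evened out. With FPKM rescaled to an equal sum in each library the adjusted p was 0.124 for Hsd17b7 and 0.169 for Sc5d, and with quantile normalization 0.0699 and 0.165. Hsd17b7 was also lost without Sema4D replicate 2 (0.0573) or control replicate 2 (0.0561), and Sc5d without Sema4D replicate 1 (0.0707) or 2 (0.0679) or control replicate 1 (0.0586) or 2 (0.0676).

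**Figure D2:**
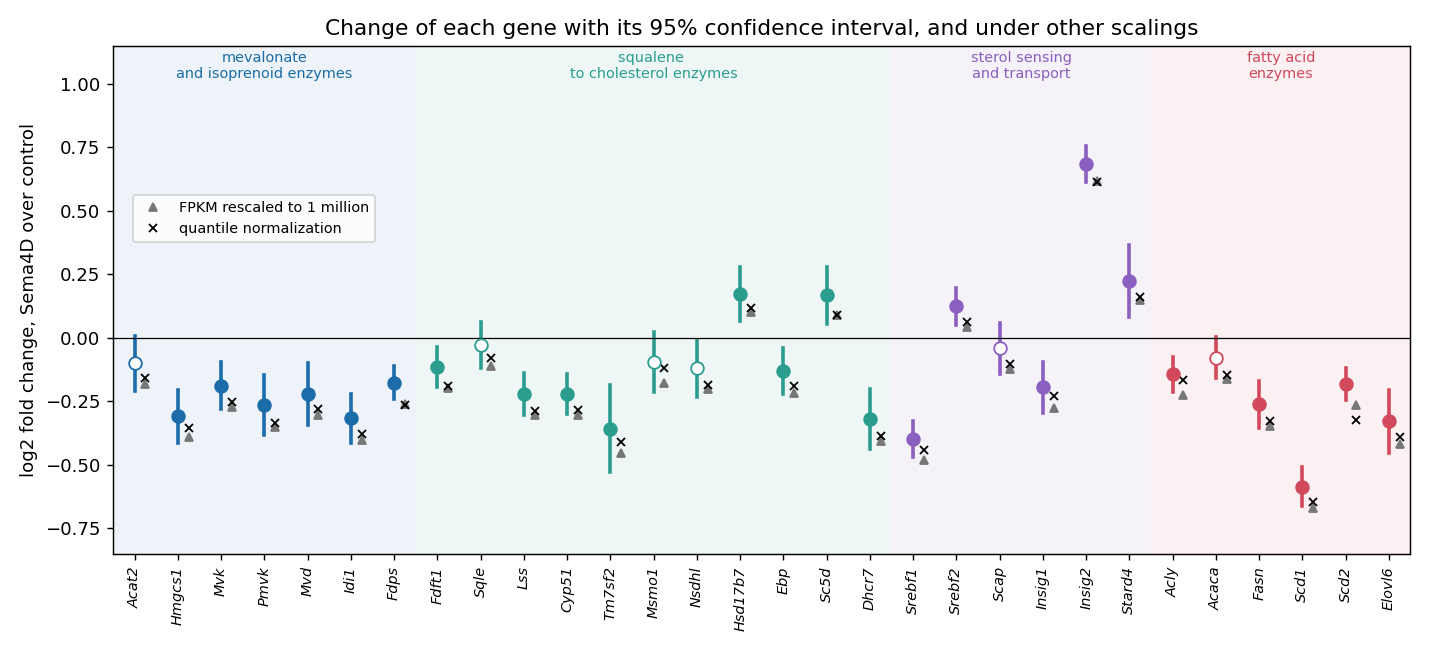
Circles give the log2 fold change of Sema4D over control (vertical axis) for each gene in pathway order, filled where the limma adjusted p was under 0.05, with bars for the 95% confidence interval; triangles and crosses give the value after FPKM were rescaled to an equal sum in each library and after quantile normalization. All 7 mevalonate enzymes and all 6 fatty acid enzymes lie below 0 under each of the 3 scalings, and Insig2 lies at 0.61 or above in each.

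Sterol sensing and transport genes were mixed: 3 rose, 2 fell and 1 did not pass, where 24.5% of all tested genes rose and 22.2% fell. Insig2, the ER anchor that keeps the Scap complex in place (chromosome 1, 121304353 to 121332662), had 29.8, 29.7 and 29.9 FPKM in Sema4D libraries and 18.1, 18.2 and 18.2 FPKM in control libraries. The groups did not overlap (SD 0.0917 FPKM in Sema4D and 0.0696 FPKM in control libraries, n = 3 each). At an estimated 659 to 1440 fragments per library, SDs so small lie below the scatter of counting fragments. They are therefore no yardstick of the separation. The rise of Insig2 was the largest change of the 30 genes (log2 fold change 0.68, SE 0.030, limma adjusted p = 4.93e-07). Its SE and adjusted p draw in part on that same small scatter, so they may overstate the precision. Insig1, its paralog and itself an SREBP target (chromosome 5, 28071412 to 28078662), had 62.6, 68.9 and 67.4 FPKM in Sema4D libraries and 78.6, 73.3 and 76.1 FPKM in control libraries (-0.19, SE 0.043, adjusted p = 0.00659). Insig1 remained the more abundant by FPKM, and the ratio of Insig1 to Insig2 was 2.10, 2.32 and 2.25 in Sema4D libraries and 4.34, 4.02 and 4.19 in control libraries.

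Srebf1 (chromosome 11, 60199084 to 60224186) had 64.8, 63.5 and 66.3 FPKM in Sema4D libraries and 84.1, 88.2 and 85.3 FPKM in control libraries (-0.40, SE 0.031, limma adjusted p = 1.53e-05). Srebf2, whose product favours the sterol genes, had 54.7, 56.0 and 56.8 FPKM in Sema4D libraries and 50.1, 51.1 and 52.4 FPKM in control libraries (0.12, SE 0.031, adjusted p = 0.0117). In both the groups were apart, but the rise of Srebf2 was lost with FPKM rescaled to an equal sum (0.04, adjusted p = 0.327) and with quantile normalization (0.06, adjusted p = 0.128). The ratio of Srebf1 to Srebf2 was 1.18, 1.14 and 1.17 in Sema4D libraries and 1.68, 1.73 and 1.63 in control libraries. Rescaling a library's FPKM to another sum leaves such a ratio as it is, whereas quantile normalization can change it. Gene-level FPKM do not separate the SREBP1a and SREBP1c transcripts of Srebf1.

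Scap, the escort protein, was at 20.8 ± 0.567 FPKM in Sema4D and 21.4 ± 1.03 FPKM in control libraries, with overlapping groups (-0.04, 95% interval -0.14 to 0.06, limma adjusted p = 0.472). Stard4, a soluble carrier of cholesterol between membranes and an SREBP target, had 16.5, 17.7 and 15.4 FPKM in Sema4D libraries and 13.6, 13.4 and 15.1 FPKM in control libraries (0.22, SE 0.061, adjusted p = 0.0174). Its highest control and lowest Sema4D libraries nearly touched, and the rise was lost with rescaled FPKM (adjusted p = 0.0849), with quantile normalization (0.064), and without Sema4D replicate 2 (0.0581), control replicate 1 (0.0588) or control replicate 2 (0.0623).

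**Figure D3:**
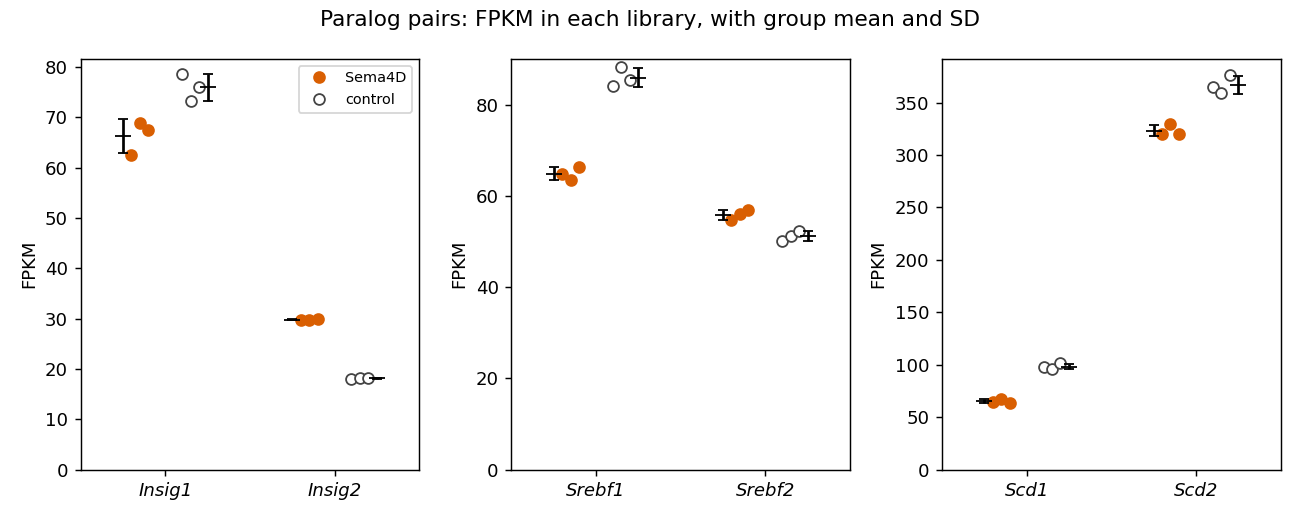
FPKM (vertical axis, from 0) of Insig1 and Insig2, Srebf1 and Srebf2, and Scd1 and Scd2 in each Sema4D library (filled) and each control library (open); the dash and bar beside each group are its mean and SD (n = 3). Insig1 and Insig2, at 66.3 and 29.8 FPKM in Sema4D and 76.0 and 18.2 FPKM in control libraries, are closer together with Sema4D.

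Fatty acid enzymes fell in 5 of 6 cases (median -0.22), against 22.2% of all tested genes. Their summed level was 533 ± 7.998 FPKM in Sema4D and 629.5 ± 15.7 FPKM in control libraries (SD, n = 3 each). Acly, which frees acetyl-CoA from citrate and so feeds both routes, had 78.1, 77.3 and 79.3 FPKM in Sema4D libraries and 85.3, 85.3 and 89.1 FPKM in control libraries (-0.14, SE 0.029, limma adjusted p = 0.00419). Acaca, the carboxylase that commits carbon to fatty acids, had 18.97, 19.4 and 19.04 FPKM in Sema4D libraries and 19.95, 20.01 and 20.9 FPKM in control libraries. The groups did not overlap, but the test was not passed (-0.08, adjusted p = 0.103); with rescaled FPKM it was (-0.16, adjusted p = 0.0082), and with quantile normalization as well (-0.14, adjusted p = 0.00889). Of Acaca's 75-base stretches 47.4% also occur in another gene, Gm5182, so its level is uncertain too. Fasn, the synthase that assembles palmitate, had 32.4, 33.5 and 33.5 FPKM in Sema4D libraries and 38.1, 39.9 and 41.9 FPKM in control libraries (-0.26, SE 0.040, adjusted p = 0.000891).

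Scd1 and Scd2 encode stearoyl-CoA desaturases, which turn saturated into monounsaturated fatty acids, and lie close together on chromosome 19. Scd1 (44394450 to 44407709) had 64.3, 67.3 and 63.8 FPKM in Sema4D libraries and 97.8, 96.0 and 101 FPKM in control libraries, the largest fall of the 30 genes (-0.59, SE 0.034, limma adjusted p = 2.31e-06). Scd2 (44293676 to 44306864), the most abundant of the 30 by FPKM, had 319.9, 329 and 320.4 FPKM in Sema4D libraries and 365, 359 and 376 FPKM in control libraries (-0.18, SE 0.028, adjusted p = 0.000892). The ratio of Scd1 to Scd2 was 0.201, 0.204 and 0.199 in Sema4D libraries and 0.268, 0.268 and 0.269 in control libraries, so the groups were apart. With quantile normalization the log2 fold changes were -0.65 for Scd1 and -0.32 for Scd2, closer together than as deposited. Elovl6, the elongase that takes palmitate to stearate, had 13.4, 14.99 and 13.3 FPKM in Sema4D libraries and 18.3, 17.0 and 17.7 FPKM in control libraries (-0.33, SE 0.054, adjusted p = 0.00132). Of the 75-base stretches of Scd1 and Scd2, 3.24% and 1.80% occur in another gene.

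The log2 ratios of the 3 paralog pairs differed between the groups by -0.91 for Insig1 to Insig2, -0.53 for Srebf1 to Srebf2 and -0.41 for Scd1 to Scd2. In each the groups did not overlap and the two-sided exact permutation test gave p = 0.1, the smallest that 3 libraries against 3 allow, and 0.1 after adjustment over the 3 pairs.

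**Figure D4:**
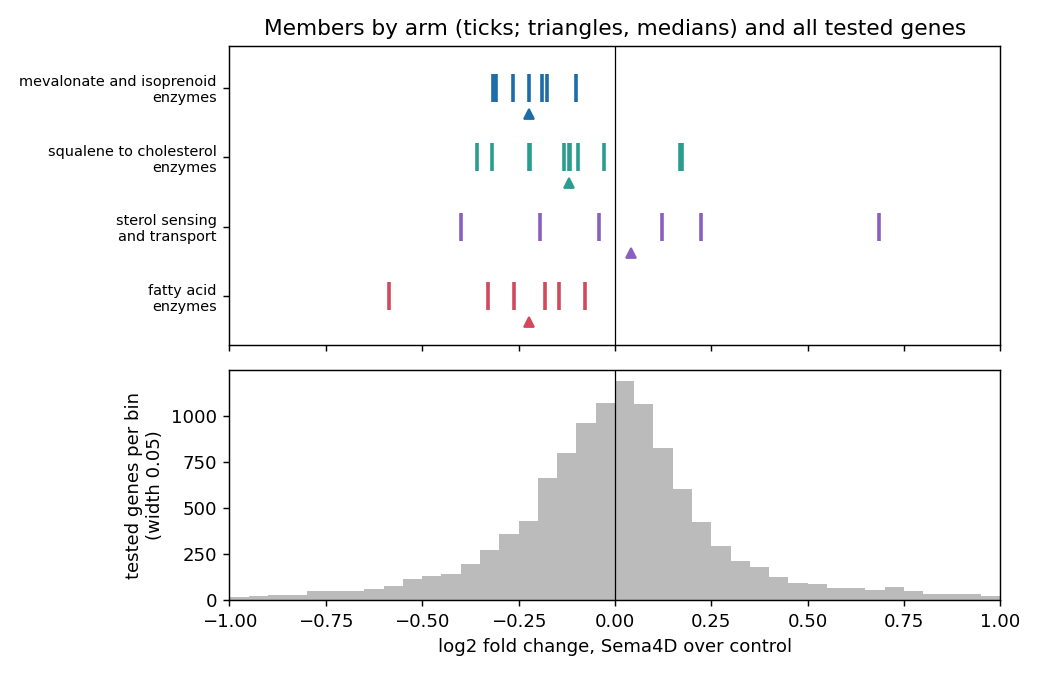
The upper panel marks the log2 fold change of each member by arm (ticks) with the arm's median (triangles), and the lower panel counts all tested genes in bins of 0.05 on the same horizontal axis; 407 tested genes lie above 1.0 and 125 below -1.0, outside the range drawn. The mevalonate and fatty acid ticks all lie left of 0, whereas sterol sensing genes lie on both sides.

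By arm, mevalonate enzymes summed to 450 ± 9.78 FPKM in Sema4D and 526 ± 13.2 FPKM in control libraries, and the enzymes from squalene onward to 341 ± 6.92 FPKM in Sema4D and 369 ± 14.6 FPKM in control libraries (SD, n = 3 each). The mevalonate sum fell by 14.4%, that of the later enzymes fell by 7.43% and that of the fatty acid enzymes fell by 15.4%. The difference between arms was not tested. Of the 19 falls, 17 passed the threshold in each of 13 other settings, the exceptions being Fdft1 and Ebp. Of the 5 rises, Insig2 alone did so.

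Further genes of the same pathways moved in both directions: of 115 listed, 103 were tested, and 38 rose and 20 fell (median 0.06). Over all tested genes 24.5% rose and 22.2% fell. Both splits depended on scaling. With rescaled FPKM 30 rose and 27 fell (median -0.02), where 17.3% of all tested genes rose and 32.8% fell. With quantile normalization 31 rose and 29 fell (median 0.01), where 18.7% of all tested genes rose and 29.4% fell. The list of further sterol enzymes included Acat1, which encodes the mitochondrial thiolase rather than the cytosolic one of the sterol route. Acat1 fell (-0.41, SE 0.034, limma adjusted p = 2.25e-05), and Cyb5a, the electron donor of several oxidases, rose (0.47, adjusted p = 6.53e-06). In all, 2 of the 8 tested fell and 2 rose, near the shares over all tested genes. The rises became 1 without Sema4D replicate 2, without control replicate 3 and with either scaling. In the isoprenoid branches 4 of 13 rose, among them Nus1, of dolichol synthesis (0.38), and Rabggta, of Rab prenylation (0.51), while 1, the farnesyltransferase subunit gene Fnta, fell (-0.29). Those 4 rises became 2 without Sema4D replicate 1 or 2, without control replicate 1, with no filter on low values and with either scaling.

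Of 12 genes of SREBP processing and sterol sensing, 3 rose and 3 fell. These counts lie near the shares over all tested genes, of which 24.5% rose and 22.2% fell. Rnf145, a sterol-regulated ubiquitin ligase that acts with Insig proteins, had 23.1, 22.9 and 23.2 FPKM in Sema4D libraries and 14.2, 13.7 and 13.3 FPKM in control libraries (0.71, SE 0.037, limma adjusted p = 1.34e-06). Erlin2, an ER protein of sterol-regulated degradation, rose (0.34), and Paqr3, which tethers the Scap complex to the Golgi, fell (-0.49). With rescaled FPKM or quantile normalization the falls became 5.

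Of 13 cholesterol uptake and transport genes, 2 fell and 7 rose, beside 22.2% and 24.5% of all tested genes. With either scaling 3 fell and 6 rose. Stard5 (22.9 ± 0.960 FPKM in Sema4D and 13.8 ± 0.664 FPKM in control libraries, 0.69), a sterol carrier, the lysosomal sterol carrier gene Npc2 (99.4 ± 1.88 FPKM in Sema4D and 73.2 ± 1.54 FPKM in control libraries, 0.44) and the lysosomal lipase gene Lipa (34.1 ± 0.414 FPKM in Sema4D and 25.7 ± 0.862 FPKM in control libraries, 0.40) were the clearest of them.

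On the fatty acid side, 7 of 19 further synthesis and elongation genes rose and 4 fell, beside 24.5% and 22.2% of all tested genes. With rescaled FPKM 5 rose and 5 fell, and with quantile normalization 5 rose and 6 fell. Acss2, which makes acetyl-CoA from acetate, fell most (9.58 ± 0.224 FPKM in Sema4D and 16.4 ± 1.53 FPKM in control libraries, -0.71, limma adjusted p = 3.79e-05). The desaturase genes Fads1 (-0.40) and Fads2 (-0.33), both SREBP1 targets, fell with it, while Hsd17b12, of the elongation cycle, rose (0.46). Of 15 genes of acyl-CoA and triglyceride synthesis 7 rose and 1 fell, beside the same shares of all tested genes. Dgat2, which completes triglycerides, had 23.2, 23.4 and 22.5 FPKM in Sema4D libraries and 8.48, 8.91 and 8.84 FPKM in control libraries (1.303, SE 0.038, adjusted p = 4.08e-08), and the acyl-CoA synthetase genes Acsl1 (0.69) and Acsl5 (0.41) rose as well. The phosphatase gene Lpin1 did not pass (-0.05, adjusted p = 0.518). The falls became 2 without Sema4D replicate 2 or control replicate 1 and in 4 other settings.

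Among 23 genes of fatty acid uptake and oxidation, 8 were higher and 7 lower at the threshold, beside 24.5% and 22.2% of all tested genes. With either scaling 7 were higher and 9 lower. The nuclear receptor gene Ppard (0.72) rose, and the mitochondrial thiolase gene Acaa2 fell (-0.51, with 19.7, 18.9 and 20.4 FPKM in Sema4D and 28.4, 28.5 and 28.4 FPKM in control libraries). The 7 falls became 4 without Sema4D replicate 1 or 2 or without control replicate 2.

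**Figure D5:**
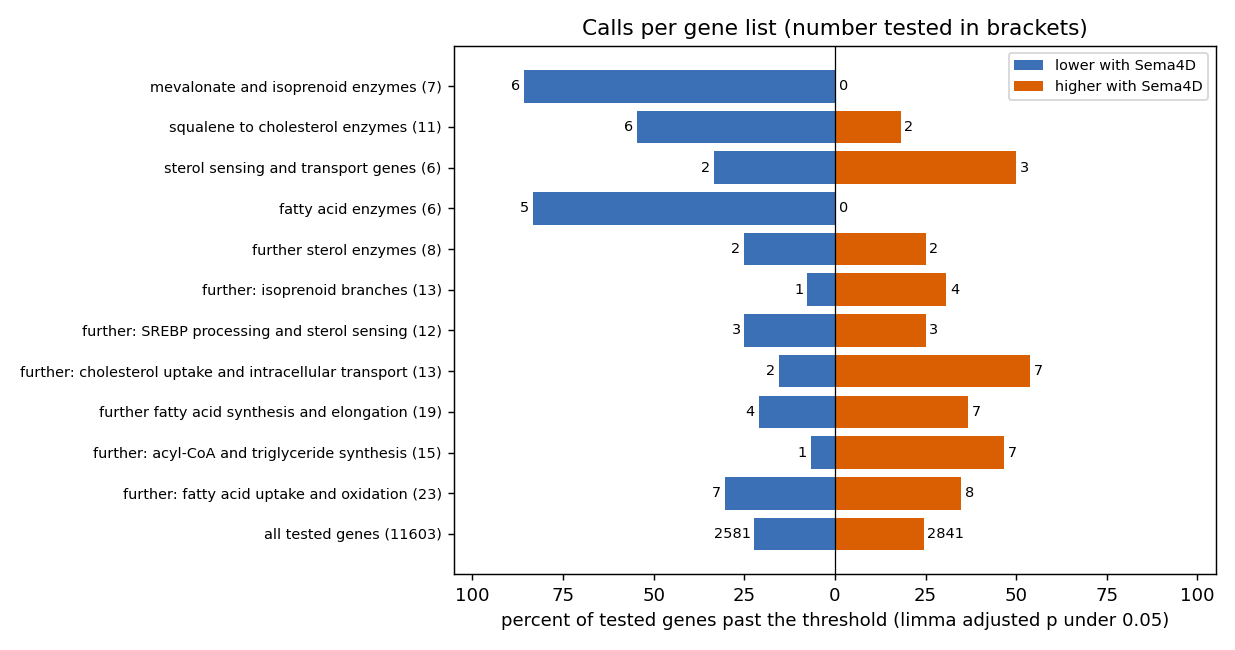
Bars give, for each gene list, the percent of its tested genes that were lower (left) or higher (right) with Sema4D at a limma adjusted p under 0.05, with the number of genes at the bar's end. The mevalonate and fatty acid arms, with 6 of 7 and 5 of 6 lower and 0 higher, stand beside the lists of further genes and all tested genes, of which 2581 were lower and 2841 higher.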

How the data were processed

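Total RNA was sequenced in 3 Sema4D and 3 control libraries. The deposited values are FPKM, computed by the authors. Per the submitters' processing notes, their tools were Cufflinks 2.2.1, Bowtie2 2.2.3, TopHat2 2.0.13 and SAMtools 0.1.19 and the build mm10, named without roles. Annotation, strand setting and cross-library scaling: not given in the sources used here. Low FPKM values of 1681 genes with 1 long transcript fell on steps of whole fragments (81.5% to 87.6% within 0.15), which put depth at 13500000 to 17900000 fragments per library and the least covered of the 30 genes, Tm7sf2, at about 229 fragments or more.

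Values were transformed to log2(FPKM + 1), which slightly understates changes of low genes. Those averaging 1 FPKM or more were tested with limma 3.58.1 in R 4.3.3 (variance trend, two-sided, no replicate block) with Benjamini-Hochberg adjustment. The fit was tested on simulated data with 50 genes changed at each size. It recovered 8% of changes of 1.1-fold, 60% of 1.25-fold and 98% of 1.5-fold, and called 0.0438% of unchanged genes. Far fewer genes were changed there than were called here, so these shares need not hold for these data. A gene that did not pass may still have a small change. Ratios used scipy 1.17.1. Positions and promoters are RefSeq's (GRCm38.p6, the assembly of mm10); transcripts are GENCODE's on GRCm38, and shared stretches were counted over 75 bases of each gene's longest coding transcript.

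The members and lists were chosen with earlier results of these data known. All 30 members were named, with, of each further list, the 3 genes of smallest p and a few fixed by name; some of these are not reported here. Alternatives were another pseudocount, filters, scalings, no variance trend, a replicate block and each library left out.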

Additional observations from a re-analysis of the deposited data

How the results depend on the processing

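Each count and value was recomputed with a pseudocount of 0.1, no filter, a mean of at least 5 FPKM, rescaled FPKM, quantile normalization, no variance trend, a replicate block, and each library left out. No call among the 30 genes changed with the pseudocount, the filters or the variance trend. With FPKM rescaled to an equal sum the median of all tested genes moved by -0.08 and the calls became 2005 higher and 3802 lower (34.5% higher, against 52.4% as deposited); with quantile normalization 38.8% were higher. Of the 30 genes, 4 calls were then lost and 4 gained with rescaled FPKM, and 4 lost and 3 gained with quantile normalization. Rises among squalene to cholesterol enzymes became 0 in both, and those among sterol sensing and transport genes 1 in both. Median log2 fold changes with rescaled FPKM and quantile normalization were -0.31 and -0.28 for mevalonate enzymes, -0.20 and -0.19 from squalene onward, and -0.31 and -0.33 for fatty acid enzymes. The median of sterol sensing and transport genes, 0.04 as deposited, turned to -0.040 and -0.022. The cause was not tested.

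With each library left out in turn, rises from squalene onward were 0 to 2 and falls were 4 to 7. Medians were -0.27 to -0.19 for mevalonate enzymes and 0.018 to 0.067 for sterol sensing and transport genes. Sqle (-0.057 to 0.0049), which did not pass, changed sign without control replicate 3.

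The replicate numbers are shared by the groups' labels, but same-numbered libraries did not all deviate together (correlations of deviations 0.14, -0.08 and -0.05 for replicates 1, 2 and 3), so the numbers were not taken as pairs. Only the libraries numbered 1 correlated best with each other; Sema4D replicate 3 did so with control replicate 2 (0.136) and Sema4D replicate 2 with control replicate 3 (0.103), and that matching was not fitted. With a replicate block 2638 genes were higher and 2356 lower; among the 30 genes Fdft1 (adjusted p = 0.0659) and Ebp (0.057) were lost and Nsdhl (0.0499) gained, and rises in the isoprenoid branches became 2. Every paralog ratio kept its direction with a pseudocount of 1 on both FPKM. Depth limits the least covered genes.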
